A study of Drosophila melanogaster with 4 samples.

Results

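The proteasome subunits were described in embryonic germ cells of Drosophila melanogaster in which the kinase Tao was expressed from a transgene. Members were all genes whose single symbol in the platform's probe annotation begins with Prosalpha, Prosbeta, Rpn or Rpt followed by a digit. There were 38 such genes of 10804 genes measured, read by 55 probes. The rule uses the symbols and no measured value. Among them, 25 are the standard subunits, called somatic here, with 11 of the core particle and 14 of the regulatory cap. The other 13 have symbols that end in T or R, with or without a digit, and are called testis-type here.

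The proteasome degrades proteins that carry ubiquitin chains. Its core is a barrel of stacked rings, with outer rings of alpha subunits that control entry and inner rings of beta subunits that hold the protease sites. The cap binds ubiquitinated proteins, removes the ubiquitin, unfolds the substrate with a ring of Rpt ATPases and feeds it into the core. In Drosophila several subunits have a duplicate gene that is transcribed in the male germ line. Prosalpha6T, for example, replaces Prosalpha6 during sperm formation. The class testis-type was set by symbol alone, and transcription in testis was not examined.

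Pole cells, the germ-line precursors, were sorted by FACS on the marker EGFP-Vas from embryos of stages 8 to 14. In the driven groups the mothers were nosGal4:VP16/nosGal4:VP16, which places Gal4 under nanos control in the germ line, and the fathers carried EGFP-Vas with either UAS-tao-1(D168A) or UAS-tao-1(D168D). In the non-driven groups yw mothers were mated with the same fathers, so that all 4 groups carried a UAS-tao-1 transgene and EGFP-Vas. D168A is labelled dominant negative, whereas D168D is called wild-type in the series title, overexpression in the sample descriptions and gof in the sample titles. The mothers' genotypes thus differ between driven and non-driven embryos, and their effect cannot be told apart from that of the driven transgene.

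Each form was measured on 2 arrays of 2 colours, on which the dyes Cy3 and Cy5 were exchanged between driven and non-driven RNA. The 2 arrays were treated as a dye swap of the same extracts and as 1 replicate, and no value of a single form could be checked against a second replicate. All values are log2 ratios, driven over non-driven, averaged over the probes of a gene. For each form the Cy3-driven array is given first and the Cy5-driven array second, and ± is the distance of either array from their mean. Tao itself was at 2.98 and 2.84 under D168A and at 3.04 and 2.99 under D168D, which checks the direction. Because the files hold ratios and no intensities, the level of a subunit in pole cells is unknown. No defining germ-line marker could therefore be checked for presence, and vas, nos and pgc were not analysed here. In such pooled cells, fewer cells of a type and less RNA per cell cannot be told apart.

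Of the proteasome genes in the RefSeq gene table, 48 meet the rule on symbols and 38 were measured. Prosalpha1, Prosalpha1R, Prosalpha3T, Prosbeta1, Prosbeta6, Rpn9, Rpn10, Rpt1, Rpt6 and Rpt6R were not analysed here as members. All 38 measured genes matched the table by gene ID. There were 22 genes with 1 probe, 15 with 2 and 1, Prosalpha7, with 3.

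The first question was whether any subunit changed in pole cells with either form of Tao. With D168A, 0 of 38 subunits reached 2-fold on both arrays in the higher direction and 0 in the lower, against 0.148% and 0.00926% of all genes. With D168D the counts were also 0 and 0, against 0.157% and 0.00926%. The highest form mean was that of the lid subunit Rpn7 under D168D (0.84 ± 0.44, 1.79-fold), and the lowest was that of the testis-type catalytic subunit Prosbeta5R2 under D168D (-1.49 ± 0.82, 0.356 of the non-driven level). At 1.5-fold on both arrays, 0 members were higher in either form (against 0.5% of all genes under D168A and 0.768% under D168D), and 0 were lower under D168A (against 0.074%). Prosbeta5R2 was the 1 member lower by that rule under D168D (2.63%, against 0.315%). On at least 1 array, 2-fold was reached by 4 of 38 members (10.5%, against 5.07% of all genes). They were Prosbeta5R2 on the Cy3-driven and Prosalpha4T1 on the Cy5-driven D168A array, where 0.611% and 2.45% of all genes reached it. On the D168D arrays they were Rpn7 with Cy3, where 1.11% of all genes reached it, and Prosalpha3 and Prosbeta5R2 with Cy5, where 1.81% did.

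**Figure D1:**
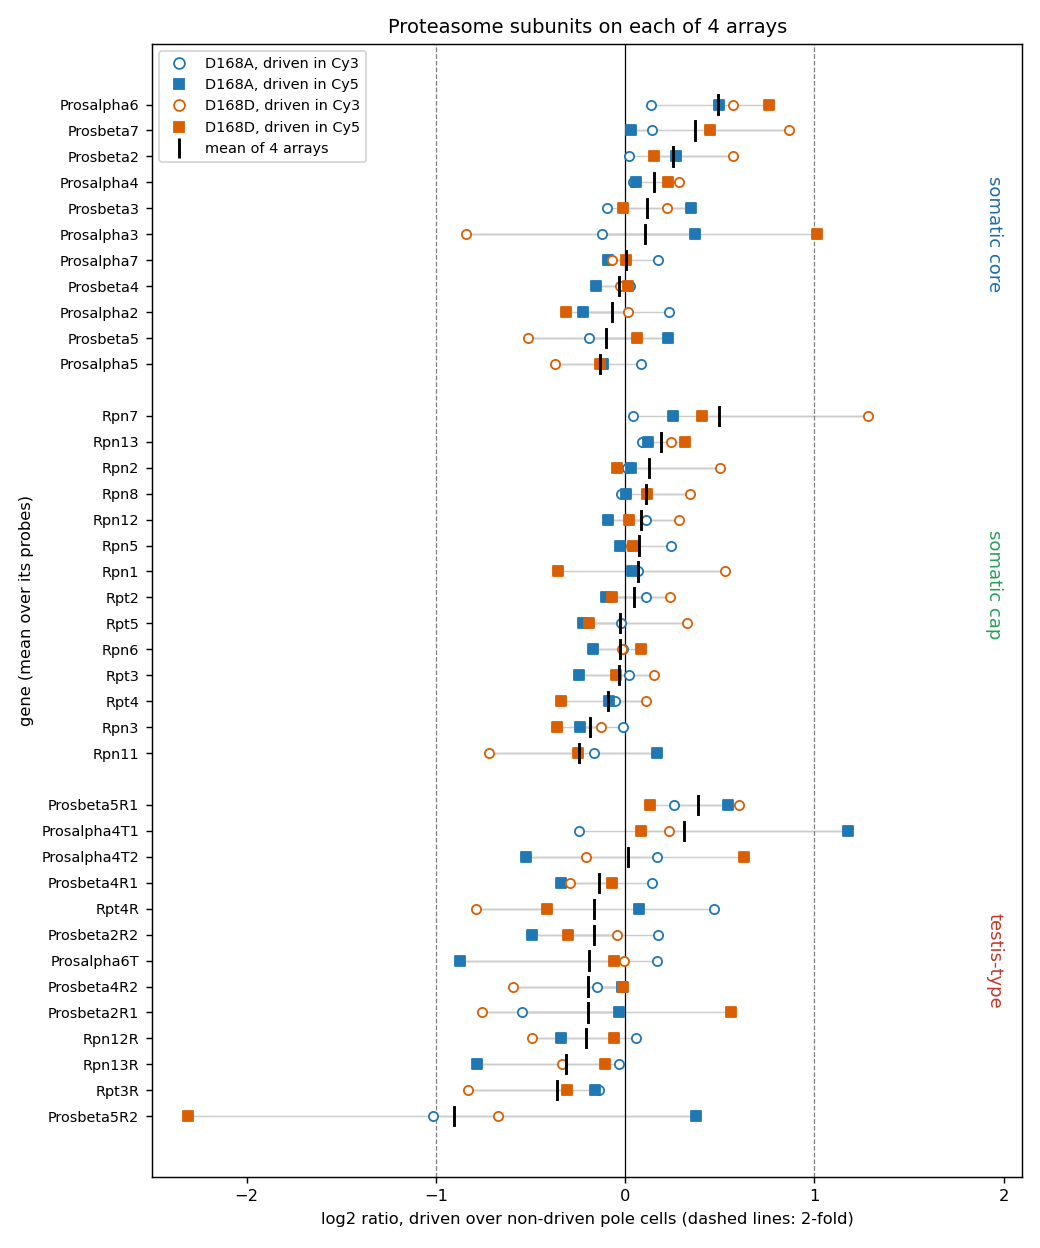
Log2 ratio of driven over non-driven pole cells (horizontal axis) for each of 38 proteasome genes (vertical axis) on 4 arrays. Symbols give the Tao form and the dye of the driven RNA, black ticks the mean of the 4 arrays, and dashed lines 2-fold; most somatic subunits lie near 0, and Prosbeta5R2 reaches -2.31 on 1 array.

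In limma over the 2 forms, with 1 residual degree of freedom per gene, 0 of 38 members passed a Benjamini-Hochberg adjusted p under 0.05 over all genes, against 0.0555% of all genes higher and 0% lower. The smallest adjusted p among members was 0.333, for Prosbeta5R1, and standard errors ranged from 0.084 to 0.27. An unadjusted p under 0.05 was reached by 8 of 38 members, 5 higher and 3 lower, where 13.2% of all genes reached it (8% higher and 5.16% lower). The 5 were Prosalpha6, Prosbeta2, Rpn7, Prosbeta5R1 and Prosalpha4T1, and the 3 were Prosbeta5R2, Rpn13R and Rpt3R. The labels do not say that the cells of a form came from more than 1 collection. These p-values rest on the spread between the 2 forms, which limma moderates with a variance estimated over all genes. The arrays of a form were averaged first, so their disagreement enters neither the standard errors nor the p-values. Prosalpha3, for example, had a standard error of 0.085 although its D168D arrays were at -0.84 and 1.02.

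A weaker rule asks only for the same sign on every array. By it, 7 of 38 members were above 0 on all 4 arrays (18.4%, against 9.33% of all genes) and 4 were below 0 on all 4 (10.5%, against 8.26%). The 7 were Prosalpha4, Prosalpha6, Prosbeta2, Prosbeta7, Rpn7, Rpn13 and Prosbeta5R1, of which 6 are somatic. The 4 were Rpn3, Rpt3R, Rpn13R and Prosbeta4R2, of which 3 are testis-type. Prosalpha4, Rpn13 and Prosbeta4R2 met the rule only in the average of their probes, since single probes lay on the other side of 0 on some arrays. Within a form, 10 members were above 0 on both D168A arrays (26.3%, against 24.4%) and 11 on both D168D arrays (28.9%, against 23.3%). These shares were not tested, since subunits are not replicates.

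Among the outer-ring subunits, which form the gate of the core, Prosalpha6 (NCBI Gene 34359) stood highest. It was at 0.14 and 0.50 under D168A and at 0.57 and 0.76 under D168D. All 4 arrays were above 0, and the D168D arrays were both above those of D168A. Its mean over the forms was 0.49 (SE 0.11, limma adjusted p = 0.337). Prosalpha4 (NCBI Gene 32584) was close to 0 under D168A, at 0.04 and 0.06, and at 0.28 and 0.23 under D168D. Its arrays lay close together only in the average of its 2 probes. Under D168A 1 probe was at 0.09 and -0.25 and the other at -0.01 and 0.37. The D168D means of these probes lay 0.68 apart.

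The remaining outer-ring subunits showed no common direction. Prosalpha3 was at -0.12 and 0.37 under D168A and at -0.84 and 1.02 under D168D. The arrays of each form thus had opposite signs, and the D168D mean of 0.09 ± 0.93 has an error larger than any other member's in either form. Prosalpha2 was at 0.23 and -0.22 under D168A and at 0.02 and -0.31 under D168D, and Prosalpha5 at 0.08 and -0.11 and at -0.37 and -0.13. Prosalpha7 had form means of 0.04 ± 0.13 and -0.03 ± 0.04. The median over the 6 measured somatic alpha subunits was 0.05 under D168A and 0.03 under D168D, where all genes had medians of 0.01 and -0.01.

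Among the inner-ring subunits, Prosbeta2 carries the trypsin-like site and Prosbeta5 the chymotrypsin-like site. Prosbeta2 (NCBI Gene 39628) was at 0.02 and 0.27 under D168A and at 0.57 and 0.15 under D168D, above 0 on every array. Prosbeta5 (NCBI Gene 45269) was at -0.19 and 0.23 under D168A and at -0.51 and 0.07 under D168D, with opposite signs in the 2 orientations of both forms. The catalytic subunits measured thus had different patterns, and in limma the adjusted p was 0.377 for Prosbeta2 and 0.609 for Prosbeta5.

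Of the inner-ring subunits without a protease site, Prosbeta7 (NCBI Gene 40639) differed most between the forms. It was at 0.14 and 0.03 under D168A and at 0.86 and 0.45 under D168D. D168A minus D168D was -0.72 and -0.42 in the 2 orientations, which is short of 2-fold in both. Prosbeta3 had form means of 0.12 ± 0.22 and 0.11 ± 0.11, and Prosbeta4 of -0.06 ± 0.09 and -0.0048 ± 0.02. The median over the 5 measured somatic beta subunits was 0.09 under D168A and 0.11 under D168D.

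The ATPases of the cap use the energy of ATP to unfold substrates. Rpt2 was at 0.11 and -0.10 under D168A and at 0.24 and -0.07 under D168D, and Rpt3 at 0.02 and -0.24 and at 0.15 and -0.05. Rpt4 was at -0.05 and -0.08 under D168A and at 0.11 and -0.34 under D168D, and Rpt5 at -0.02 and -0.22 and at 0.33 and -0.19. All 4 were higher on the Cy3-driven than on the Cy5-driven array in both forms, a pattern that 11 of 38 members (28.9%) and 24.8% of all genes had. The reverse pattern was seen in 7 of 38 members (18.4%) and 26.1% of all genes. The form means of the 4 ATPases lay between -0.12 and 0.08.

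The lid, which holds the deubiquitinase that strips substrates, contained both the highest and the lowest somatic cap subunit by the mean over the forms. Rpn7 (NCBI Gene 42641), a structural lid subunit, was at 0.04 and 0.25 under D168A and at 1.28 and 0.40 under D168D. All 4 arrays were above 0, but the D168D Cy3-driven array stood far above the others. Its mean over the forms was 0.49 (SE 0.17, limma adjusted p = 0.366), and the gene has 1 probe. Rpn11 (NCBI Gene 33738), the deubiquitinase itself, was at -0.16 and 0.17 under D168A and at -0.72 and -0.25 under D168D. It was thus near 0 under D168A and below 0 on both D168D arrays, and its partner Rpn8 was at -0.02 and 0.0030 and at 0.34 and 0.11.

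Rpn3 was the 1 somatic subunit below 0 on all 4 arrays, at -0.01 and -0.24 under D168A and at -0.12 and -0.36 under D168D. The other lid subunits, Rpn5, Rpn6 and Rpn12, had form means between -0.09 and 0.15. Over the 7 measured lid subunits the median was 0.0035 under D168A and 0.04 under D168D. Single lid members thus spread around a median near 0, from -0.49 to 0.84 under D168D.

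Rpn13, a ubiquitin receptor of the cap, was measured. It was at 0.09 and 0.12 under D168A and at 0.24 and 0.32 under D168D, with the arrays of a form close together. The D168D means of its 2 probes lay 0.62 apart, at -0.03 and 0.59. The large scaffold subunits of the cap were near 0 under D168A, Rpn1 at 0.07 and 0.03 and Rpn2 at 0.01 and 0.03. For Rpn2 this is an average of 2 probes with opposite signs on each D168A array (0.13 and -0.11 with Cy3, -0.22 and 0.28 with Cy5). With D168D both Rpn1 and Rpn2 were high on the Cy3-driven array (0.53 and 0.50) and below 0 on the Cy5-driven array (-0.35 and -0.04).

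The second question was whether core and cap differed. The median over 11 somatic core subunits was 0.05 under D168A and 0.09 under D168D, and that over 14 somatic cap subunits was 0.0048 and 0.08. Core minus cap was 0.04 under D168A and 0.01 under D168D, or 0.05 in the mean over both forms. By array the difference was 0.02 and 0.11 under D168A and -0.22 and 0.11 under D168D, so its sign was not the same on all arrays. With 2 pairs an exact permutation test over samples cannot go below p = 0.5 and was not run.

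**Figure D2:**
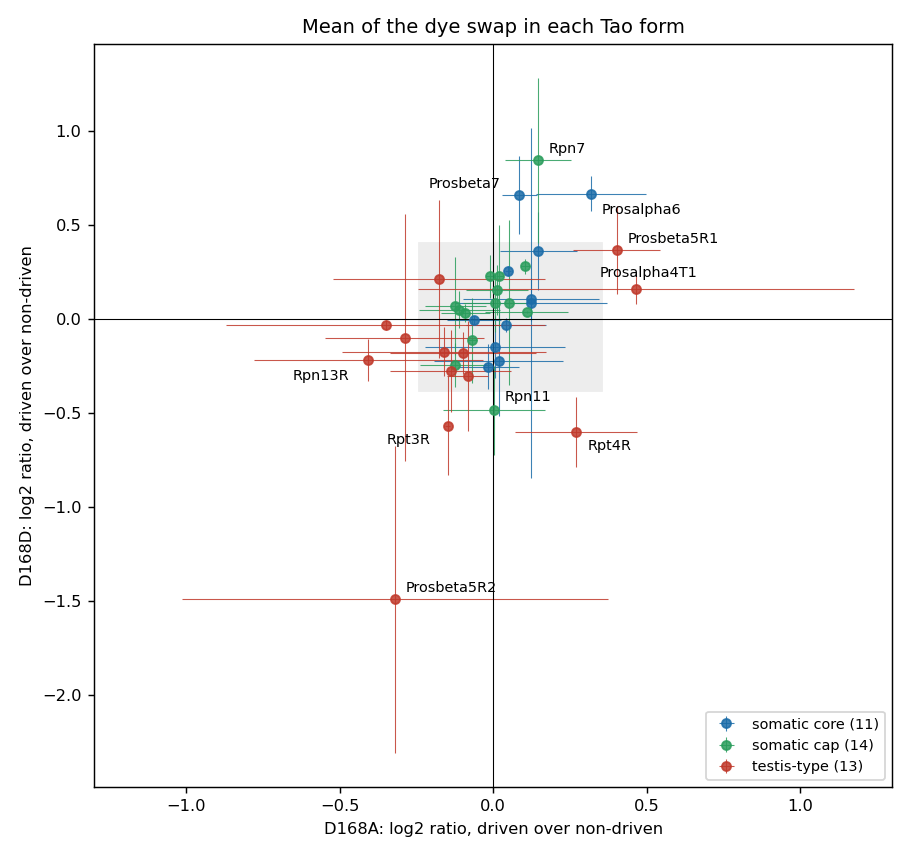
Mean log2 ratio of the dye swap under D168A (horizontal axis) against D168D (vertical axis) for 38 proteasome genes, coloured by group. Bars reach the 2 arrays of a form, and the grey box spans the central 90% of all genes in each form. Rpn7, Prosalpha6 and Prosbeta7 lie above it, and Rpn11, Rpt3R, Rpt4R and Prosbeta5R2 below. Prosalpha4T1 and Prosbeta5R1 lie to its right, and Rpn13R, Prosalpha6T, Prosbeta2R1 and again Prosbeta5R2 to its left.

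Across members the forms were related loosely. Over 38 genes the form means correlated at r = 0.49 and rho = 0.58, over 25 somatic genes at r = 0.62 and rho = 0.67, and over 13 testis-type genes at r = 0.36 and rho = 0.12. Over all genes r was 0.38 and rho 0.42. These are descriptions across genes of the same arrays, and genes are not independent replicates. Within a form, the 2 orientations correlated over the members at r = -0.29 under D168A and 0.26 under D168D. Over all genes these values were -0.10 and 0.01, so the orientations of a form were hardly related across the whole array. Between the forms, arrays of the same orientation correlated over all genes at r = 0.36 (Cy3-driven) and 0.15 (Cy5-driven), more than the 2 arrays of a form did. Over the members these values were 0.35 and 0.07, and over somatic genes 0.41 and 0.67.

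The third question was whether testis-type subunits differed from somatic ones. The median over 13 testis-type subunits was -0.15 under D168A and -0.18 under D168D, against 0.02 and 0.08 over 25 somatic subunits. Somatic minus testis-type was 0.17 under D168A and 0.27 under D168D, and 0.26 in the mean over both forms. Only 3 of 13 testis-type subunits had a mean above 0 in each form, against 17 of 25 somatic subunits. Of all genes, 53.2% had a mean above 0 under D168A and 47% under D168D. By array, somatic minus testis-type was -0.03 and 0.16 under D168A and 0.55 and 0.08 under D168D. The testis-type median was thus the lower on 3 of 4 arrays, and by far the most on the Cy3-driven D168D array.

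With D168D, 9 of 13 testis-type subunits were below 0 on both arrays (69.2%), against 3 of 25 somatic subunits (12%) and 24.1% of all genes. With D168A, 4 of 13 were below 0 on both arrays (30.8%), against 4 of 25 (16%) and 21.5%. The difference between these shares has no replicate and was not tested. By the rule of 2-fold on both arrays, 0 of the 13 were called in either form.

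The testis-type subunits of the outer ring disagreed between arrays. Prosalpha4T1 (NCBI Gene 42457) was at -0.24 and 1.18 under D168A and at 0.23 and 0.08 under D168D, so that its D168A mean of 0.47 ± 0.71 rests on 1 array. Prosalpha4T2 was at 0.17 and -0.52 under D168A and at -0.21 and 0.63 under D168D, and its Cy3-driven D168D value includes a probe with a ratio of 0. Prosalpha6T (NCBI Gene 34726) was at 0.17 and -0.87 under D168A and at -0.0066 and -0.06 under D168D. In each of these genes the D168A arrays had opposite signs.

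The testis-type relatives of the catalytic subunits Prosbeta2 and Prosbeta5 went in different directions. Prosbeta5R1 (NCBI Gene 37690) was above 0 on every array, at 0.26 and 0.54 under D168A and at 0.60 and 0.13 under D168D. Prosbeta5R2 (NCBI Gene 318924) was at -1.01 and 0.37 under D168A and at -0.67 and -2.31 under D168D. It was low on 3 of 4 arrays and had the largest mean array spread of all members, 0.76, which exceeded that of 99.6% of all genes. Prosbeta2R1 was at -0.55 and -0.03 under D168A and at -0.76 and 0.56 under D168D, and Prosbeta2R2 at 0.17 and -0.49 and at -0.04 and -0.30.

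Prosbeta4R1 and Prosbeta4R2 relate to a subunit without a protease site, and 1 gene lies between them in the RefSeq table. Prosbeta4R1 was at 0.14 and -0.34 under D168A and at -0.29 and -0.07 under D168D. Prosbeta4R2, averaged over its 2 probes, was below 0 on all 4 arrays, at -0.15 and -0.02 and at -0.59 and -0.01. The probes themselves had opposite signs on both D168A arrays (-0.35 and 0.05 with Cy3, 0.02 and -0.05 with Cy5). They did so too on the Cy5-driven D168D array (0.15 and -0.17). Both form means were below 0 in Prosbeta4R1 and in Prosbeta4R2.

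Among testis-type cap subunits, Rpt3R (NCBI Gene 41190) was below 0 on all 4 arrays. It was at -0.14 and -0.16 under D168A and at -0.83 and -0.31 under D168D, and its 2 probes had the same sign in both forms. Rpt4R (NCBI Gene 39351) was at 0.47 and 0.07 under D168A and at -0.79 and -0.41 under D168D, on opposite sides of 0 in the forms, which was so for 1 of 38 members (2.63%) and 4.91% of all genes. Rpn12R was at 0.06 and -0.34 under D168A and at -0.49 and -0.06 under D168D. Rpn13R was below 0 on all 4 arrays, at -0.03 and -0.78 and at -0.33 and -0.11.

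Each testis-type gene was then set beside the somatic gene whose name it carries, which gave 13 pairs with 9 somatic partners. The testis-type gene was lower in 10 of 13 pairs under D168A and in 12 of 13 under D168D. The median difference, testis-type minus somatic, was -0.15 under D168A and -0.46 under D168D. By array it was lower in 7 and 7 pairs under D168A and in 12 and 10 pairs under D168D. In 2 pairs it was lower on all 4 arrays, and in 1 pair, Prosbeta5R1 against Prosbeta5, it was higher on all 4. Pairs that share a partner are not independent, and whether a probe of one copy also reads the other was not examined, since no probe sequence was used here.

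**Figure D3:**
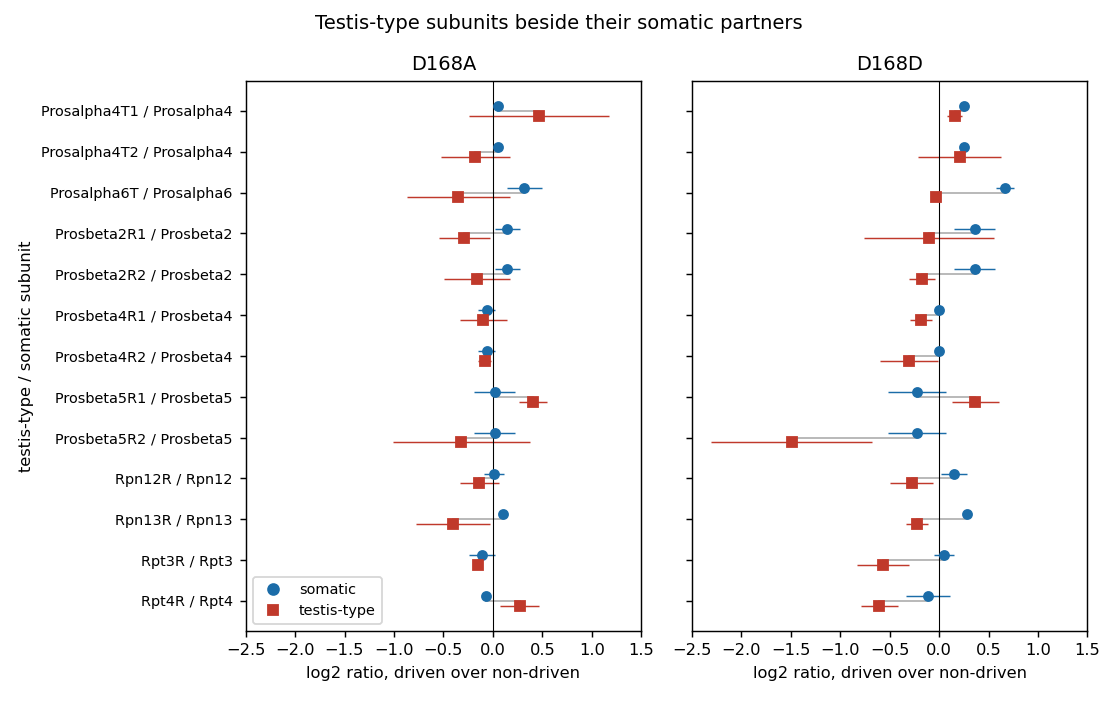
Log2 ratio of driven over non-driven cells (horizontal axis) for 13 testis-type genes and their somatic partners (vertical axis), under D168A on the left and D168D on the right. Points are means of a dye swap and bars reach its 2 arrays; testis-type squares lie left of the somatic circles in 10 of 13 pairs under D168A and 12 of 13 under D168D.

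The arrays also disagreed more on the testis-type genes. The distance of an array from the mean of its form, averaged over both forms, had a median of 0.23 over 13 testis-type genes and of 0.13 over 25 somatic genes, where all genes had 0.15. It was above the all-gene median in 12 of 13 testis-type genes and in 9 of 25 somatic genes, and it was larger in the testis-type gene in 12 of 13 pairs. Spot brightness is unknown here, so the larger spread cannot be set against it.

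**Figure D4:**
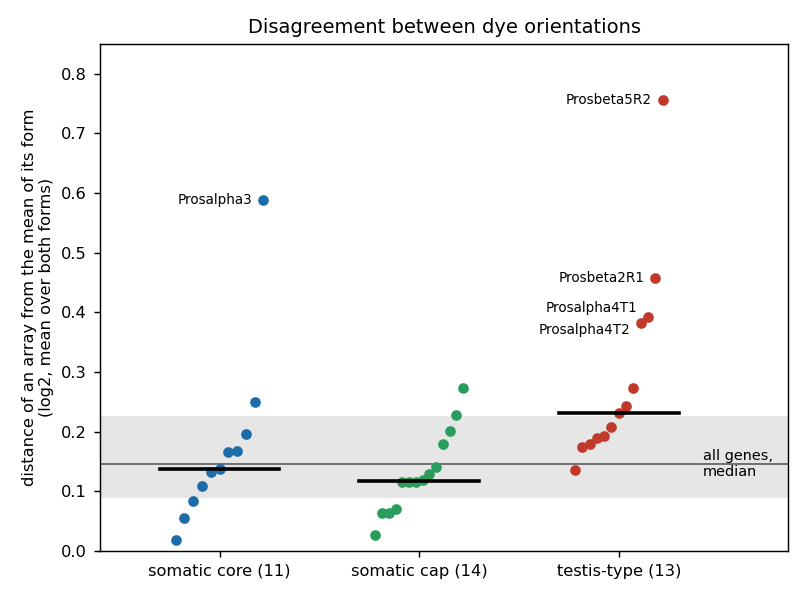
Distance of an array from the mean of its form on the log2 scale, averaged over both forms (vertical axis), for each proteasome gene in 3 groups. Black bars are group medians, the grey band spans the central 50% of all genes and the line their median; 12 of 13 testis-type genes lie above that line.

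The last question was whether members differed between the Tao forms. By the rule of 2-fold in both orientations, 0 of the 38 differed, against 0.13% of all genes higher and 0.00926% lower under D168A. In the Cy3-driven orientation alone, Rpn7 and Rpt4R differed by 2-fold or more (5.26%, against 1.24% of all genes). In the Cy5-driven orientation alone, Prosalpha4T1, Prosalpha4T2 and Prosbeta5R2 did (7.89%, against 4.05%). In both orientations, 10 members were lower under D168A than under D168D (26.3%, against 17.2% of all genes) and 7 were higher (18.4%, against 22.2%). All 10 of the lower members are somatic, 3 of the core and 7 of the cap. Of the 7 higher members, 5 are somatic and 2 testis-type. Somatic subunits were thus lower in 40% and higher in 20% of cases, and testis-type subunits in 0% and 15.4%. The largest mean differences of D168A from D168D were 1.17 ± 1.51 for Prosbeta5R2, 0.87 ± 0.39 for Rpt4R and 0.49 ± 0.07 for Rpn11, and in the other direction -0.70 ± 0.55 for Rpn7, -0.57 ± 0.15 for Prosbeta7 and -0.39 ± 0.77 for Prosalpha4T2. The orientations of Prosbeta5R2 and Prosalpha4T2 had opposite signs, so the arrays do not settle a direction for them. With 1 replicate per form these differences were not tested.

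Genes that act beside the proteasome were taken from lists chosen by name. Of 10 named subunits of the COP9 signalosome, a complex built like the lid, 7 were measured, and their medians were 0.01 under D168A and -0.02 under D168D. Of 9 accessory factors 5 were measured, with medians of -0.03 and 0.06. The highest was Usp14, a deubiquitinase of the cap, at 0.13 and 0.30 under D168A and at 0.62 and 0.44 under D168D, and the lowest by the mean over both forms was PI31, a proteasome-binding protein, with form means of -0.06 and -0.05. All 4 listed regulators of proteasome genes were measured, with medians of -0.02 and 0.02. Among them cnc, the fly relative of the Nrf transcription factors, had form means of -0.10 and -0.22, and its inhibitor Keap1 of 0.06 and 0.38.

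Of 19 genes for ubiquitin supply and conjugation 9 were measured, with medians of -0.03 and 0.08. By the mean over both forms, Uba2, a subunit of the SUMO-activating enzyme, was the highest (0.18 and 0.53). The ubiquitin-conjugating enzyme gene ben was the lowest (-0.22 and -0.14). The D168D arrays of Uba2 were far apart, at 1.01 and 0.05. Of 7 genes for delivery of substrates 5 were measured, with medians of -0.0023 and 0.23. They were led by p47, a cofactor of the unfoldase TER94 (-0.0023 and 0.64), and the shuttle factor Rad23 (0.08 and 0.49), with rngo lowest (-0.06 and -0.08). The D168A arrays of p47 had opposite signs, at -0.38 and 0.38. In these 5 lists 0 genes were 2-fold changed on both arrays of a form, and 0 passed an adjusted p under 0.05 in limma.

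**Figure D5:**
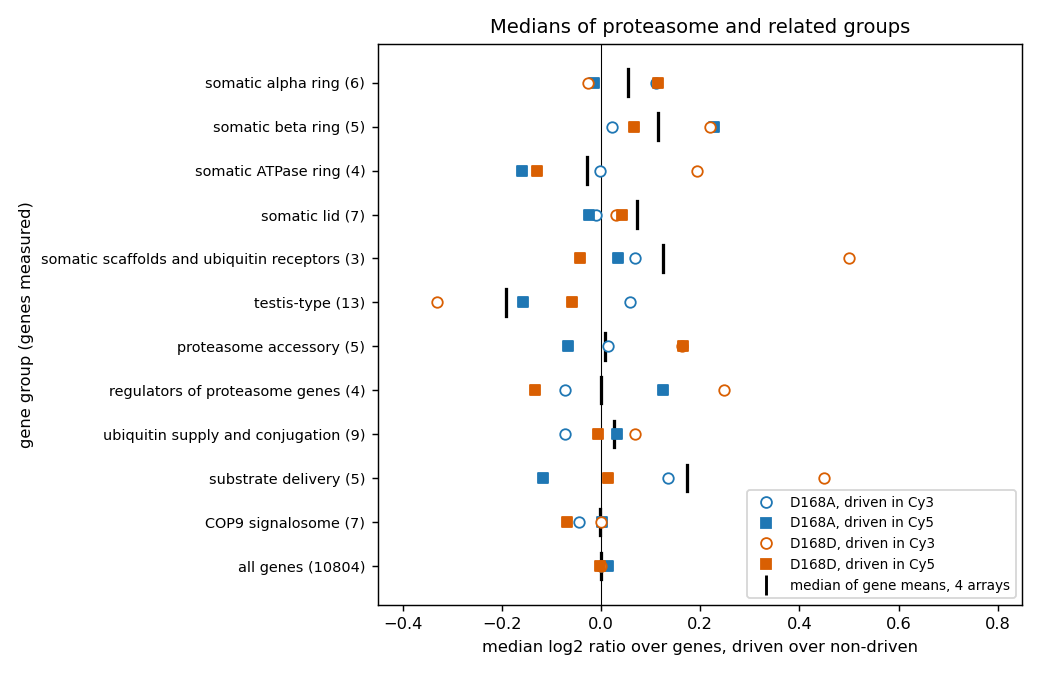
Median log2 ratio over the genes of each group (horizontal axis) on each array, for subunit classes, related lists and all genes (vertical axis, number measured in brackets). Black ticks are medians of the gene means over 4 arrays; the testis-type group is at -0.19, the COP9 signalosome and all genes lie at 0 to 2 decimals, and substrate delivery is at 0.17.

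Marker lists of the germ line and of other cell types were summarized by their medians. These medians under D168A and D168D were 0.07 and 0.08 for 8 of 11 germline markers, and 0.01 and 0.14 for 3 of 8 gonadal soma markers. They were 0.0089 and -0.17 for 2 of 7 muscle markers, -0.02 and 0.05 for 5 of 6 neuron and glia markers, and 0.01 and -0.06 for 4 of 5 epidermis and trachea markers. For 7 of 7 hemocyte and fat body markers they were 0.12 and 0.11, and for 2 of 6 midgut and yolk markers 0.15 and -0.15. By array, the germline median was 0.16 and -0.02 under D168A and 0.27 and -0.04 under D168D, above 0 only where driven RNA carried Cy3. Under D168A 7 of these 8 markers had a mean above 0, whereas osk was at -0.23 and -0.65. The hemocyte and fat body median does not show Sr-CI, which was at 0.61 and 0.21 under D168A and at -0.81 and -1.32 under D168D. D168A minus D168D was 1.42 and 1.53 for this gene, past 2-fold in both orientations, as in 0.13% of all genes. Late spermatogenesis genes were at 0.10 and -0.15 over 7 of 10 measured. With D168D the median of that list was below 0, as the testis-type median was. Under D168A the median of the list was above 0 and the testis-type median below. Single genes of the list differed: 5 of the 7 had a mean above 0 under D168A, and 2 under D168D, can (0.08) and betaTub85D (0.34). The part of other cells in the results was not tested.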

How the data were processed

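RNA of sorted pole cells was compared on 4 Agilent arrays with 2 colours each, from 100 ng of total RNA per the labels' protocols. Each deposited value is a log10 ratio of a feature. The authors obtained it in Agilent Feature Extraction 7.1, a name taken per the submitters' processing notes. The sources used here do not give its background correction, dye normalization or centring. The base 10 follows from that software and from values that stop at 2 and -2. Ratios were read as driven over non-driven on every array: on both Cy3-driven arrays the zeros carry a minus sign (446 and 583 features), which a reversal of sign would produce. Array medians over genes lay between -0.0022 and 0.01 (log2).

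Of 22575 features, 17328 with 1 symbol in the platform annotation were used, 326 had several symbols and 4921 had none. No genome build is named for the platform, so no coordinates are given. For the tests, log2 ratios were computed from them and averaged over probes, then over the dye swap. limma 3.58.1 (lmFit and eBayes, R 4.3.3) tested the 2 form means against 0 over all 10804 genes, two-sided, with Benjamini-Hochberg adjustment. The script was tested on simulated data. The number of arrays limits the precision. The rule for members reads symbols only, but this gene family and the lists were chosen with earlier results of these data known. Array values are given for all testis-type members, the catalytic subunits and ATPases measured, the 5 highest and 5 lowest means, the 3 largest differences between forms each way, and members past a threshold. Array values of the other somatic members named were added after they were seen. Alternatives were other thresholds, probes, centring, zeros and single orientations.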

Additional observations from a re-analysis of the deposited data

Results flagged for a closer look

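Values are given here for single members, and for groups and lists of at least 5 measured genes, where both D168A arrays lay on one side of 0 and both D168D arrays on the other, a pattern that 4.91% of all genes have by their own values. The difference between the forms was not tested in any of these cases, because each form is 1 replicate. Among the 38 members it held for Rpt4R, the testis-type ATPase gene, which differed by 0.87 between D168A (0.47 and 0.07) and D168D (-0.79 and -0.41) and has 1 probe. Over the 7 somatic lid subunits the array medians were -0.01 and -0.03 under D168A and 0.03 and 0.04 under D168D, all close to 0, and the median difference of D168A from D168D was -0.12. Late spermatogenesis genes had array medians of 0.07 and 0.10 under D168A and of -0.04 and -0.06 under D168D, and their median difference was 0.15. For the hemocyte and fat body markers the array medians were 0.02 and 0.21 under D168A and -0.01 and -0.05 under D168D, but the median difference over genes was -0.036, opposite in sign to those medians. Smaller lists were not screened, but the same pattern of array medians was seen in 2 of them. The 2 midgut and yolk markers had array medians of 0.12 and 0.19 under D168A and -0.17 and -0.12 under D168D, with a median difference of 0.30. The 2 muscle markers had 0.0013 and 0.02 under D168A and -0.17 and -0.18 under D168D, with a median difference of 0.18.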

How the results depend on the processing

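Alternatives named as added were chosen after seeing the data, and for the medians below the cause was not tested. By the 2-fold rule, where 0 members were called in each form, Cy3-driven arrays alone gave 1 under D168A and 1 under D168D and Cy5-driven arrays alone 1 and 2, since fewer arrays must pass, and 1.5-fold gave 1 under D168D. For the difference between forms they gave 2 and 3 in place of 0. The limma count was 0 under all 6 alternatives, with 3 to 9 members or probes at an unadjusted p under 0.05. The core median over both forms (0.10) was 0.026 by probe, 0.061 on Cy3-driven and 0.15 on Cy5-driven arrays. The cap median (0.06) was 0.16 and -0.042 on those arrays. Core minus cap (0.05) was 0.0088 by probe, 0.014 with testis-type members included (added) and -0.094 and 0.19 on those arrays, so it has no settled sign. The testis-type median (-0.19) was -0.16 as a mean and -0.16 on the Cy3-driven arrays. Somatic minus testis-type (0.26) was 0.17 on the Cy5-driven arrays and 0.29 as the median within pairs (added). Leaving out a form gave 0.049 to 0.087 for the core, 0.0048 to 0.076 for the cap, 0.010 to 0.044 for core minus cap, -0.18 to -0.15 for the testis-type and 0.17 to 0.27 for somatic minus testis-type. Single members changed sign in 9 of 38 cases on Cy3-driven arrays and in 7 on Cy5-driven arrays, and in 0 after centring. Every ratio already pairs driven with non-driven RNA on 1 array, and the forms share only 1 replicate number, so no further replicate block could be fitted.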

Other observations

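Probes that the annotation gives to a subunit together with another gene entered no comparison, and there were 4 of them. The probe shared by Prosalpha1 and Prosalpha1R was at 0.17 and -0.20 under D168A and at -0.16 and -0.06 under D168D. The probes shared by Prosbeta6 and CG4101 had means of 0.19 ± 0.17 and 0.12 ± 0.13 under D168A and of 0.20 ± 0.24 and -0.08 ± 0.18 under D168D. The probe shared by Prosbeta4R2 and the odorant receptor gene Or23a was at 0.05 ± 0.13 under D168A and at -0.08 ± 0.10 under D168D. None of the 4 reached 2-fold on any array.

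Where a gene had several probes, these often disagreed. Probe means of both signs were found in 4 of 16 such members under D168A and in 9 of 16 under D168D. With D168D the probes of Prosbeta2R2 lay 0.81 apart, the widest of the 16, and those of Prosalpha4 0.68 apart, while those of Rpn6 lay 0.01 apart.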
